A study of Mus musculus with 6 samples.

Results

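The genes described here encode the machinery that copies DNA in S phase. They were chosen by symbol: every gene of the deposited table whose symbol belongs to the Orc, Mcm, Gins, Pola, Pold, Pole, Prim, Rfc or Rpa series, together with Cdc6, Cdc45, Cdt1, Pcna, Fen1 and Lig1. This rule found 45 of the 10989 genes, and the rule uses no expression value, although it was written with earlier results of these data known. Of them, 44 are parts of the replication machinery, and 1, Mcm3ap, matches by name but is best known as a scaffold of messenger RNA export. Pold4, the smallest subunit of DNA polymerase delta, was not analysed here.

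Total RNA of MPI-II mouse embryonic stem cells was sequenced in 2 wild-type (WT) libraries, DDX5+/+, and in 4 DDX5-/- knockout (KO) lines. Ddx5, also called p68, encodes a DEAD-box RNA helicase. Each KO line was expanded from a single clone after cutting of exon 2 by a paired Cas9 nickase and G418 selection. The WT cells are not described as clones or as having gone through that selection, so genotype cannot be told apart from cloning and selection. Both genotypes grew on feeder cells in serum medium to which leukemia inhibitory factor (LIF) and inhibitors of MEK (PD0325901) and of GSK3 (CH99021) had been added. The labels do not say whether the WT replicates came from separate cultures, so p-values measure the spread between these libraries, part of which may be technical. The comparison addressed how expression differs when Ddx5 is disrupted.

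DNA replication starts at origins bound by the origin recognition complex (ORC). In G1, Cdc6 and Cdt1 help ORC to load the ring-shaped Mcm2 to Mcm7 helicase onto DNA, a step called licensing. In S phase, Cdc45 and the 4-subunit GINS complex join the ring and turn it into the active helicase. Polymerase alpha with primase lays down primers, polymerases epsilon and delta extend them on the leading and lagging strand, and the ring clamp Pcna, loaded by replication factor C (RFC), keeps polymerases on DNA. The RPA trimer covers single-stranded DNA, and Fen1 and Lig1 process and seal Okazaki fragments. Many of these genes are classical targets of E2F transcription factors, and mouse embryonic stem cells, which spend much of their cycle in S phase, express them at high levels.

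Values are normalized expression scores in the units of the deposited table. The authors named the unit CPM, but the values are whole numbers that sum to 14612799 to 14722877 per library and follow nearly the same distribution in each, so depth is unknown and no counting error can be given. The targeted gene Ddx5 had 36433 and 36436 units in WT and 5854, 8450, 12793 and 5659 units in KO lines 1 to 4. In WT replicate 2, 131 genes were at 0, while other libraries had 13 to 19 such genes. Levels of chromosome 8 as a whole stood low in WT replicate 1 and KO line 1 and higher in the other 4 libraries, and levels of chromosome 6 stood high in KO line 4. Of 12 embryonic stem cell markers, 10 did not pass the test (Pou5f1, which encodes Oct4, lay between 13545 and 17548 units in every library), Klf4 fell (log2 -0.94, adjusted p = 0.0116, limma) and Nanog rose (log2 0.89, adjusted p = 0.0154, lost in 2 of 6 fits with 1 library dropped). Their sum was 178556 and 107374 units in WT and between 131010 and 140334 in KO. Of these sums, Dppa5a alone held 78894 and 17548 units in WT and 36418 in every KO line. Of 6 measured early differentiation markers, Otx2 rose, from 156 and 204 units in WT to 788, 618, 437 and 626 in KO (log2 1.68, adjusted p = 0.00767, limma), and 5 did not pass. Klf4 and Otx2 stayed called in all 6 fits with 1 library dropped, and the part of these markers in the results below was not tested. Markers of fibroblasts, the usual feeder cells, moved with genotype: 15 of 18 measured markers were called lower in KO, where 7.34% of all genes were. Their sum was 79783 and 50950 units in WT and 39567 to 42264 in the KO lines, and none was listed at 0. In these sums Fn1, which stem cells also express, held at least 29855 units in each library. The defining collagen Col1a1 had 8450 and 5052 units in WT and 470 to 1258 in KO.

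As a group, the replication genes differed little between KO and WT. Of the 45, 4 passed the test and all 4 were higher in KO: Pold1, Mcm8, Orc4 and Orc3. That is 8.89% of the members, where 17.1% of all genes passed, 9.75% higher and 7.34% lower, so the members' share of calls was no larger than the background. None of the 45 passed with a change of at least 2-fold, against 6.56% of all genes. No member was called lower by limma at an adjusted p below 0.05. At an unadjusted p below 0.05 in limma, 6 members were higher and 2, Pole4 and Pole, were lower. The share of all genes at that unadjusted threshold was not computed. The median log2 change was -0.01 over the members and 0.04 over all genes, and 71.1% of the members changed by less than 0.25 in size against 44.4% of all genes. The groups did not overlap for 12 members (26.7%), 8 with KO above WT and 4 with KO below, against 43.7% of all genes, 24.1% above and 19.6% below. These genes were more abundant than most, with a median level of 1612 units against 552 over the table, and their median SD between libraries of a group was 0.14 on the log2 scale against 0.20 over all genes. What abundance contributes to these shares was not tested. Changes are log2 fold changes on scaled values plus a pseudocount of 1, and adjusted p-values are Benjamini-Hochberg values over all 10989 genes from the limma fit throughout.

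**Figure D1:**
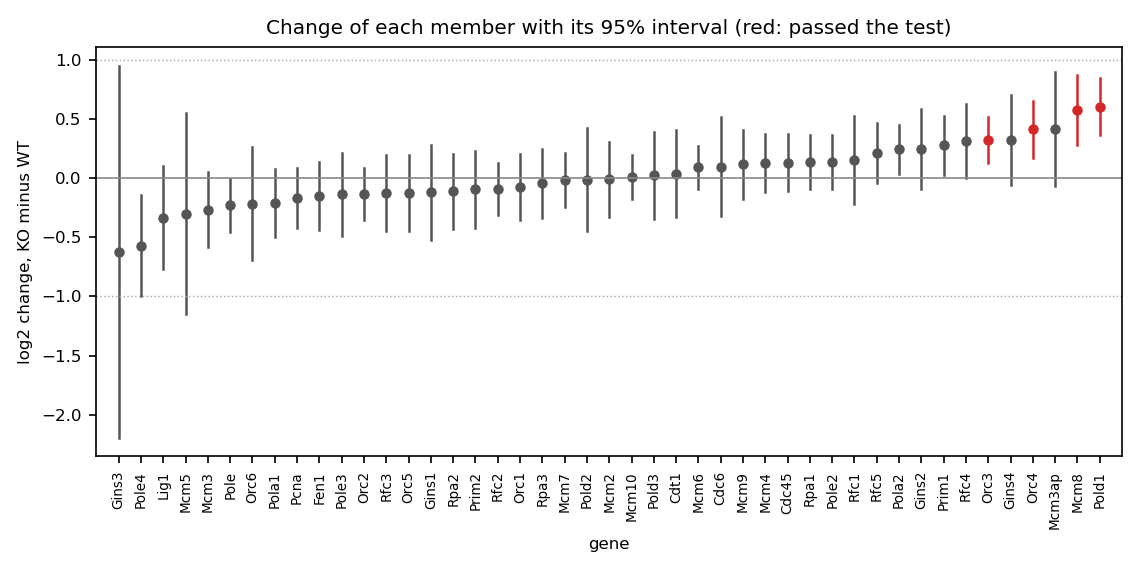
Log2 change (KO minus WT) of each of the 45 genes, with its 95% interval from the limma fit on 2 WT and 4 KO libraries; dotted lines mark a 2-fold change and red marks the genes that passed. The points run from -0.62 (Gins3) to 0.60 (Pold1), and the 4 red genes are at 0.32 or above.

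Pold1, the catalytic subunit of polymerase delta, showed the largest rise. It had 1891 and 1634 units in WT and 2874, 2711, 2625 and 2496 units in KO lines 1 to 4. All 4 lines were above both WT libraries, and they lay closer to one another than to WT. Pold1 rose 1.52-fold, from a WT mean of 1762 ± 182 (SD, n = 2) to a KO mean of 2676 ± 159 (SD, n = 4), with a log2 change of 0.60 (SE 0.102, adjusted p = 0.0131, limma). Pold1 (ENSMUSG00000038644) lies on chromosome 7, 44532746 to 44548849 on the minus strand (mm10, GENCODE M21). It no longer passed without KO line 2 (adjusted p = 0.0555), passed when any other single library was dropped, and did not pass with a weight for each library (adjusted p = 0.0527, limma with array weights).

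Mcm8, a helicase related to the replicative ring that works with Mcm9 in homologous recombination rather than in licensing, rose by a like amount from a far lower level. It had 250 and 240 units in WT and 388, 384, 332 and 388 units in KO. Mcm8 (ENSMUSG00000027353) lies on chromosome 2, 132816141 to 132844197 on the plus strand (mm10, GENCODE M21). The groups did not overlap, and KO line 3 was the lowest of the lines. The WT mean was 245 ± 7.07 (SD, n = 2) and the KO mean 373 ± 27.4 (SD, n = 4), with a log2 change of 0.58 (SE 0.125, adjusted p = 0.0252). Its partner Mcm9 had 261 and 262 units in WT and 262, 301, 282 and 294 in KO, a log2 change of 0.11 that did not pass (95% interval -0.18 to 0.41). Of the exon bases of Mcm9, 17% overlap Asf1a on the opposite strand, so the level of Mcm9 is uncertain without strand. The rise of Mcm8 was not tested against that of Mcm9. Dropping single libraries ended the call of Mcm8 in 4 of 6 fits (highest adjusted p 0.0925).

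The other calls were a pair of ORC subunits of the core that clamps around DNA. Orc4 had 1068 and 896 units in WT and 1330, 1310, 1301 and 1280 in KO, so that the 4 lines agreed within 1.04-fold. Its mean rose 1.33-fold, a log2 change of 0.41 (SE 0.102, adjusted p = 0.0371). Orc3 had 1146 and 1138 units in WT and 1448, 1459, 1420 and 1393 in KO. Both groups were tight and did not overlap, and the rise was 1.25-fold, a log2 change of 0.32 (SE 0.0836, adjusted p = 0.0425). Orc4 (ENSMUSG00000026761) lies on chromosome 2, 48902824 to 48950277 on the minus strand (mm10, GENCODE M21). Orc3 (ENSMUSG00000040044) lies on chromosome 4, 34570796 to 34614944 on the minus strand (mm10, GENCODE M21). Both calls rest on small margins: when single libraries were dropped, each failed in 5 of 6 fits (highest adjusted p 0.114 for Orc4 and 0.138 for Orc3), and each passed without WT replicate 1 (lowest adjusted p 0.0123 and 0.0453). Of the exon bases of Orc4, 9.48% overlap Acvr2a on the opposite strand, and no source used here says whether reads were counted by strand. The fibroblast markers given above were lower in the lines in which these 4 genes were higher. Their part in the calls was not tested, and fewer cells of a type cannot be told apart from less RNA per cell in bulk samples.

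**Figure D2:**
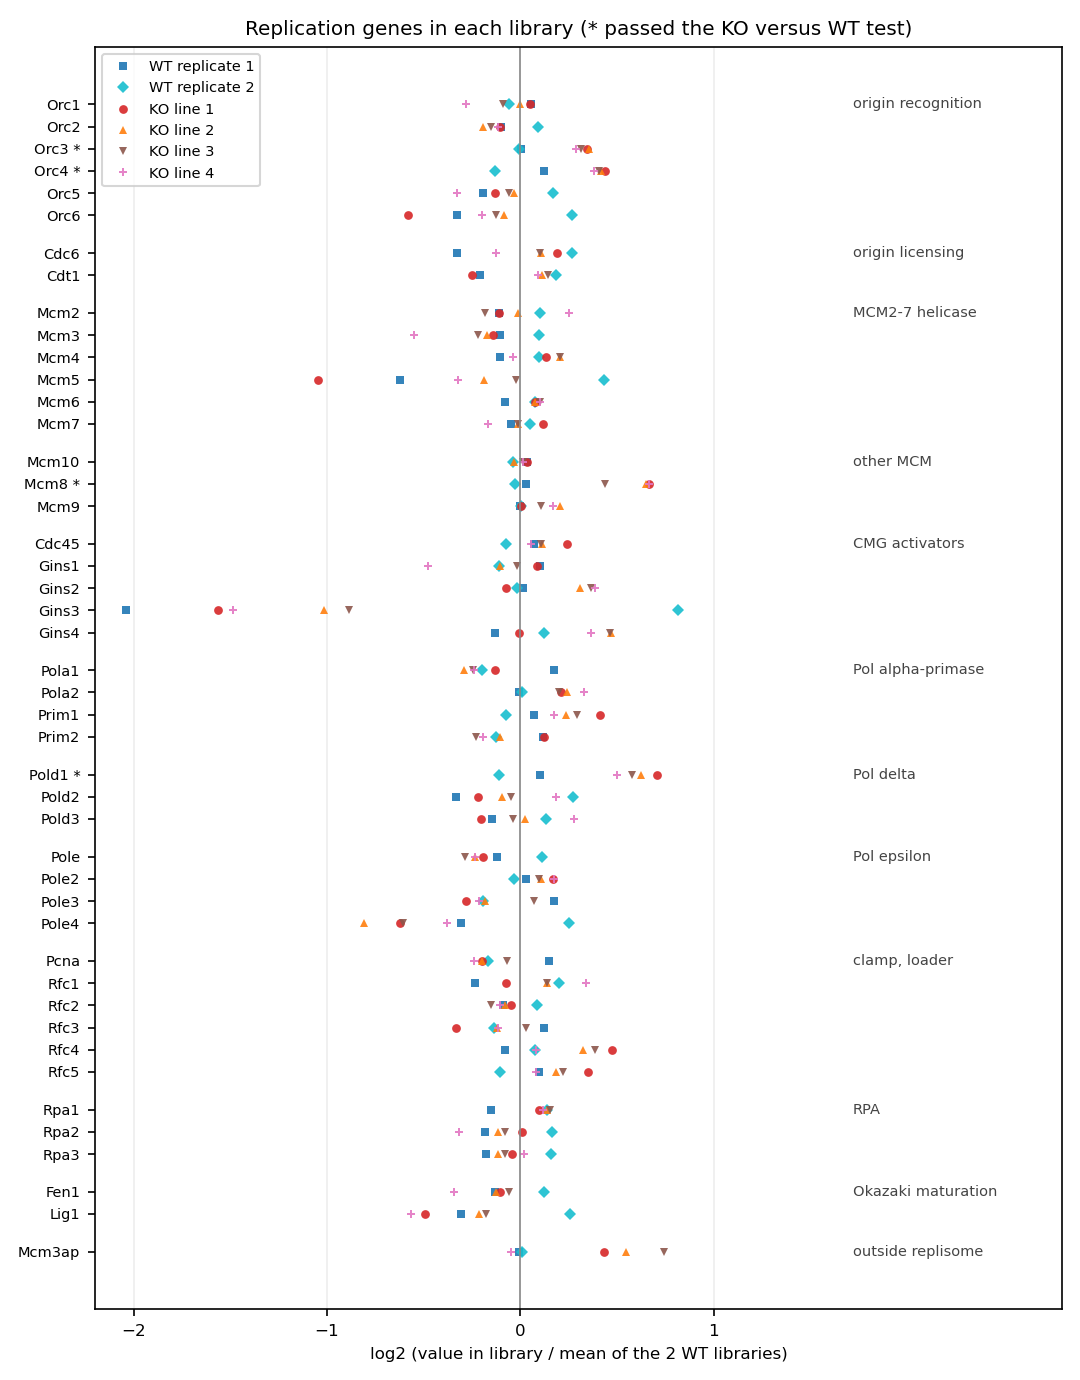
Each row is 1 gene and each symbol 1 library, drawn as the log2 ratio of its value to the mean of the 2 WT libraries; genes are grouped by role, and an asterisk marks the 4 that passed the test. In the rows of Orc3, Orc4, Mcm8 and Pold1 the 4 KO symbols lie to the right of both WT symbols, and Gins3 and Mcm5 have the widest rows.

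The remaining ORC subunits did not pass. Orc1, which brings ATPase activity to the complex, had 1528 and 1410 units in WT and 1522, 1466, 1382 and 1209 in KO. Of its exon bases, 11.9% overlap Gm12743 on the opposite strand. Orc2 lay at 1742 and 1990 in WT and at 1737, 1631, 1677 and 1724 in KO, with all lines just below the lower WT library and a log2 change of -0.14 (95% interval -0.36 to 0.08). Of the exon bases of Orc2, 24% overlap Nif3l1 on the opposite strand, so the level of Orc2 is uncertain without strand. Orc5 had 2062 and 2646 units in WT and 2146, 2304, 2257 and 1878 in KO, within overlapping ranges. Orc6, the subunit least tightly bound to the core, had 1428 and 2155 units in WT and 1196, 1690, 1642 and 1561 in KO. Within the complex, log2 changes thus ran from -0.22 for Orc6 to 0.41 for Orc4. In this fit 2 of 6 subunits were called higher and none lower, where 9.75% of all genes were called higher and 7.34% lower. Orc6 was called lower in a fit relative to its chromosome, given below. The licensing factors overlapped between groups. Cdc6 had 962 and 1456 units in WT and 1377, 1301, 1296 and 1106 in KO, a log2 change of 0.10 (95% interval -0.32 to 0.51). Cdt1 had 2752 and 3608 units in WT and 2674, 3434, 3512 and 3384 in KO, a log2 change of 0.04 (95% interval -0.33 to 0.40).

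None of the 6 subunits of the replicative helicase passed the test, and 4 of them had changes of 0.13 or less in size. Mcm6 was the steadiest, at 6042 and 6707 units in WT and at 6707, 6707, 6838 and 6838 in KO; the repeated values are steps of the normalized table, not identical measurements. Mcm7 had 7686 and 8240 units in WT and 8642, 7898, 7898 and 7100 in KO, a log2 change of -0.02 (95% interval -0.24 to 0.21). Of its exon bases, 10.8% overlap Ap4m1 on the opposite strand. Mcm4 had 7357 and 8475 units in WT and 8667, 9110, 9110 and 7716 in KO (log2 0.13, 95% interval -0.12 to 0.37). Mcm2, on chromosome 6, had 8082 and 9358 units in WT and 8082, 8640, 7684 and 10374 in KO, and its highest value was in KO line 4, where chromosome 6 as a whole stood higher. Mcm3 had 7696 and 8863 units in WT and 7514, 7340, 7108 and 5660 in KO. All 4 lines were below both WT libraries, KO line 4 the furthest, but the change of -0.27 did not pass (95% interval -0.58 to 0.05, adjusted p = 0.199). Mcm5, on chromosome 8, varied most, at 8452 and 17570 units in WT and 6302, 11431, 12796 and 10386 in KO. Its WT libraries differed 2.08-fold, its KO lines spanned 2.03-fold, and the interval of its change was correspondingly wide (log2 -0.30, 95% interval -1.15 to 0.55). Mcm10, which helps to activate the loaded ring, had 2637 and 2505 units in WT and between 2511 and 2637 in KO (log2 0.01, 95% interval -0.18 to 0.19).

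Mcm5 belongs to 6 members on chromosome 8, with Cdt1, Orc6, Gins2, Gins3 and Gins4. The median level of the 597 other genes of that chromosome deviated from the mean of the group means (log2) by -0.31 in WT replicate 1, by -0.30 in KO line 1, by 0.10 in WT replicate 2 and by 0.25, 0.24 and 0.19 in KO lines 2 to 4. The medians of the 18 chromosomes other than 6 and 8 stayed between -0.07 and 0.08 in every library. All 6 members were lower in KO line 1 than in each of the other KO lines, and 5 of them were lower in WT replicate 1 than in WT replicate 2; Gins2 was the exception. The median shift of its chromosome was then taken off each gene in each library. In this fit Orc6 was called lower in KO relative to chromosome 8 (log2 -0.41, SE 0.0906, adjusted p = 0.0205, limma). Before this step its change was -0.22 and was not called. The other genes of chromosome 8 had a median log2 change of 0.20, KO minus WT. In deposited units of Orc6, KO line 1 (1196) was below WT replicate 1 (1428), and lines 2 to 4 (1690, 1642 and 1561) were below WT replicate 2 (2155). Mcm5 and Cdt1, which did not pass, showed the same order, while Gins2, Gins3 and Gins4 did not. No label matches the libraries in this way, and the match was made after their chromosome 8 levels were seen. For Orc6, lines 2 to 4 were above WT replicate 1, so the groups overlapped. The other 5 members did not pass with chromosome medians taken off: Mcm5 moved to -0.50, Gins3 to -0.82, Cdt1 to -0.16, Gins4 to 0.13 and Gins2 to 0.05. In that fit 4 members were higher and 2 lower, Orc6 and Pole4, where 10.5% of all genes were called higher and 10.3% lower. The copy number of chromosome 8 in these cells was not measured.

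**Figure D3:**
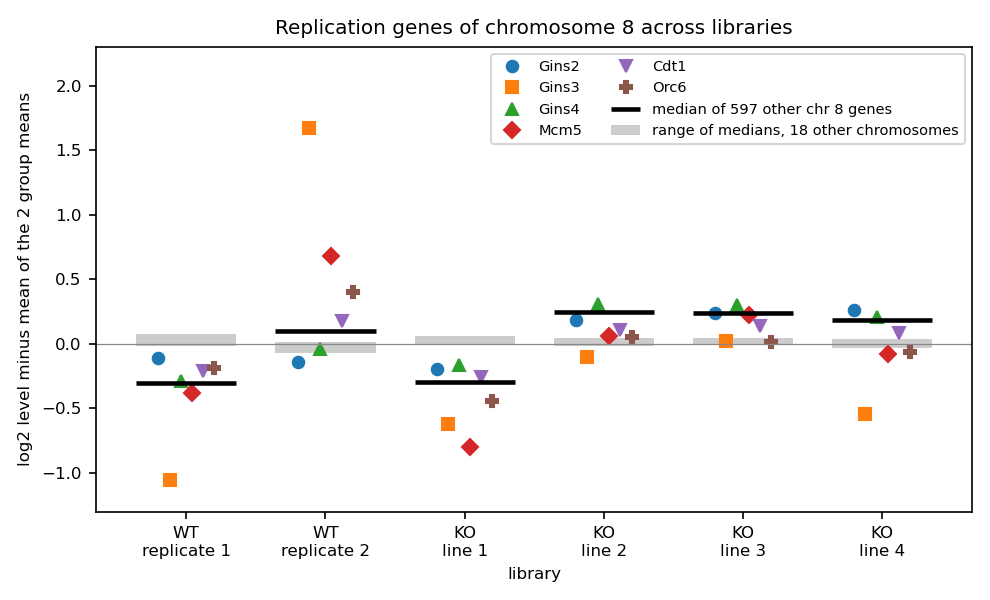
Log2 level of the 6 replication genes of chromosome 8 in each of the 6 libraries, as the distance from the mean of the 2 group means; black bars are the median of 597 other genes of chromosome 8, and grey blocks the range of medians over 18 other chromosomes. The black bars lie below 0 in WT replicate 1 and KO line 1 and above 0 in the other 4 libraries, and Gins3 lies furthest from them.

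Of the helicase activators, none passed. Gins3 was the widest of all members. It lay at 142 units in WT replicate 1 and at 1024 in WT replicate 2, a 7.21-fold difference between libraries of 1 genotype, with the KO lines at 197, 288, 316 and 208 units in between. Its direction therefore depended on the WT library used, with a log2 change of -1.99 without WT replicate 1 (adjusted p = 0.00803) and of 0.74 without WT replicate 2, which did not pass. Gins4 had 1046 and 1248 units in WT and 1142, 1586, 1579 and 1478 in KO (log2 0.32, 95% interval -0.06 to 0.70). Gins2 had 2076 and 2030 units in WT and 1951, 2538, 2644 and 2684 in KO, so that lines 2 to 4 were above WT and line 1 below. Of the exon bases of Gins2, 70.7% overlap Gse1 on the opposite strand, so its level is uncertain without strand. Gins1, on chromosome 2, had 868 and 749 units in WT and 859, 752, 798 and 580 in KO, and KO line 4 was the lowest library. Cdc45 had 989 and 896 units in WT and 1112, 1020, 1016 and 980 in KO (log2 0.13, 95% interval -0.11 to 0.37).

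Among the polymerases, Pold1 stood beside partners that did not pass. Pold2, the subunit that links the catalytic chain to the rest, had 1561 and 2376 units in WT and between 1690 and 2236 in KO (log2 -0.01, 95% interval -0.45 to 0.42). Pold3 had 886 and 1076 units in WT and between 851 and 1188 in KO (log2 0.02, 95% interval -0.34 to 0.39). The difference between subunits was not tested. In polymerase alpha-primase, Pola2, the regulatory subunit, had 1166 and 1180 units in WT and 1357, 1386, 1346 and 1472 in KO. The primase catalytic subunit Prim1 had 1158 and 1046 units in WT and 1466, 1298, 1350 and 1242 in KO. For both genes every KO line was above both WT libraries, yet neither passed over all genes (log2 0.24 and 0.28, adjusted p = 0.0992 and 0.109). The catalytic subunit Pola1 had 2394 and 1851 units in WT and between 1732 and 1940 in KO, and Prim2 had 744 and 628 in WT and between 585 and 746 in KO, each with overlapping groups.

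In polymerase epsilon, the lower values were those of Pole4, a small histone-fold subunit. It had 1359 and 1998 units in WT and 1090, 960, 1104 and 1290 in KO, all lines below both WT libraries. Its log2 change of -0.57 did not pass (SE 0.18, adjusted p = 0.0696). Pole4 lies on chromosome 6, and KO line 4, in which that chromosome stood higher, had the highest of its KO values. With chromosome medians taken off, the change relative to its chromosome was -0.75 and passed (adjusted p = 0.0245, limma). The catalytic subunit Pole had 2350 and 2760 units in WT and 2236, 2169, 2093 and 2169 in KO, again without overlap, and did not pass (log2 -0.23, adjusted p = 0.13). Pole3, the histone-fold partner of Pole4, had 1017 and 788 units in WT and between 744 and 946 in KO, overlapping. Pole2 had 554 and 530 units in WT and 610, 584, 579 and 612 in KO, above WT in every line by a small margin (log2 0.13, adjusted p = 0.361, limma). Of the exon bases of Pole2, 14.4% overlap Gm49384 on the same strand. Without WT replicate 1, Pole4, Pole, Gins3 and Lig1 were called lower and 4 members higher, in a fit that called 11.8% of all genes lower and 18.3% higher.

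The clamp, its loader, RPA and the Okazaki fragment enzymes gave no call. Pcna had 10081 and 8104 units in WT and 7919, 7919, 8660 and 7708 in KO, overlapping, with a log2 change of -0.17 (95% interval -0.42 to 0.08). Of the 5 RFC subunits, Rfc4 came closest to a call, at 656 and 730 units in WT and 964, 868, 904 and 733 in KO, with KO line 4 level with WT (log2 0.31, adjusted p = 0.142, limma). The other 4 had log2 changes between -0.13 (Rfc3) and 0.21 (Rfc5). Exon bases overlap genes on the opposite strand by 13.4% in Rfc4 (Eif4a2), 19.1% in Rfc2 (Lat2) and 15.4% in Rfc5 (Wsb2). Their levels are therefore uncertain without strand. The RPA subunits moved by between -0.11 (Rpa2) and 0.13 (Rpa1), and the 4 KO values of Rpa1 lay between 4925 and 5126 units. Fen1, the flap nuclease, had 1394 and 1664 units in WT and between 1207 and 1466 in KO. Of its exon bases, 78.8% overlap the antisense gene Gm10143, so the level of Fen1 is uncertain without strand. Lig1, the ligase of lagging strand synthesis, had 4618 and 6826 units in WT and 4060, 4926, 5058 and 3871 in KO (log2 -0.33, 95% interval -0.77 to 0.10); the WT libraries differed by more than the means of the groups did. Mcm3ap, outside the replication machinery, had 2712 and 2745 units in WT and 3676, 3984, 4558 and 2636 in KO, so that lines 1 to 3 were above WT and line 4 was not. It passed without KO line 4 (log2 0.57, adjusted p = 0.033) and did not pass over all lines (log2 0.41, adjusted p = 0.189).

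The highest KO line exceeded the lowest by a median factor of 1.23 over the members and 1.27 over all genes. Mcm5, Mcm3ap and Gins3 (6.67% of the members) spanned more than 1.5-fold, against 2584 (23.6%) of the 10943 genes above 0 in every KO line; this was not tested. Levels of different genes were compared per kb of the longest annotated transcript. This assumes values not yet divided by length, which no source used here states, and the order of genes below rests on it. Per kb, Pcna stood highest in WT, at 5990 units per kb. The 6 subunits of the Mcm2 to Mcm7 ring, which holds 1 copy of each, stood at 1464 (Mcm6) to 3848 (Mcm5) units per kb, with Lig1 at 1785 above Mcm6. The ORC subunits lay lower and spread further, from 242 (Orc4) to 1222 (Orc6) units per kb. Mcm8 and Mcm9 were the lowest in WT, at 72.1 and 53.6 units per kb. In KO, Mcm8 was at 110 and Mcm9 at 58.3 units per kb, and Gins3 at 100.1 lay between them.

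**Figure D4:**
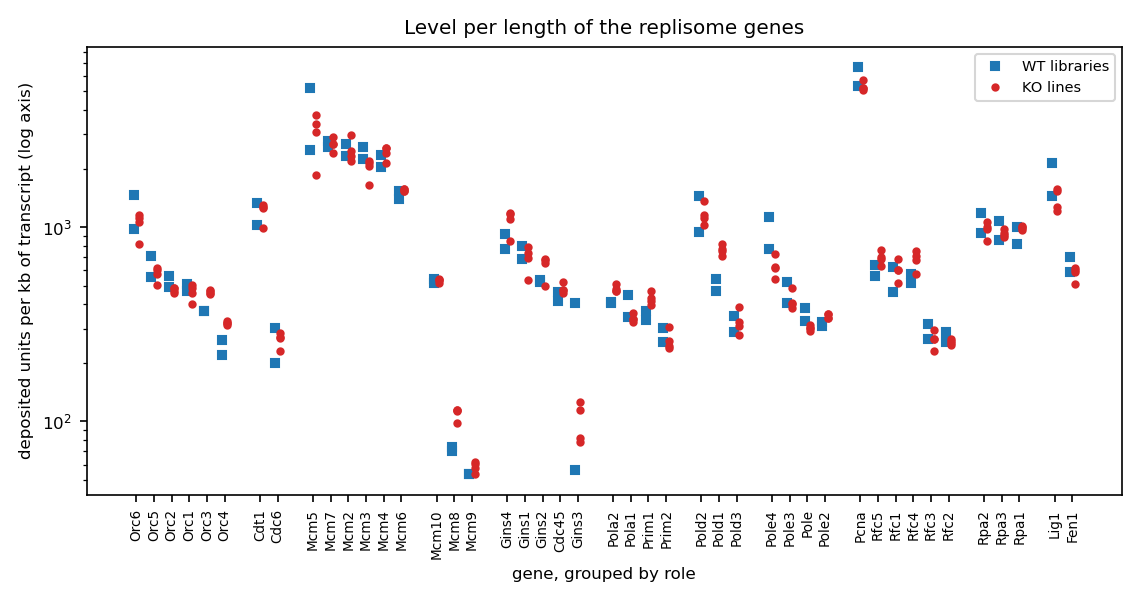
Deposited units per kb of the longest annotated transcript (log axis) for the 44 replication genes, grouped by role, with blue squares for the 2 WT libraries and red circles for the 4 KO lines. Pcna is highest in both genotypes and Mcm9 lowest; in the WT means Lig1 lies above Mcm6 of the ring, and in the KO means Gins3 lies below Mcm8.

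Promoter windows from RefSeq (build GRCm38.p6, the genome version of mm10), reaching from 250 bases before to 50 bases after a gene's start, were found for 38 of the 45 members, and 1 window a gene was kept. They were searched on both strands for the E2F motif in 4 spellings, TTTCCCGC, TTTCGCGC, TTTGCCGC and TTTGGCGC, some of which can overlap on opposite strands. The motif was present in 16 of the 38 member windows (42.1%), against 2.26% of all 32851 windows and 4.14% of the 10625 windows of genes in the deposited table. The CCAAT box was found in 60.5% of the member windows and in 37.4% of all windows. Of the 4 genes that rose, Pold1, Mcm8 and Orc3 had an E2F match and Orc4 had none, while Mcm3, Mcm5, Mcm6, Mcm7, Orc1 and Cdc6, which did not pass, had at least 1 each. A match is a string of letters and not a measured binding site. The windows of the 4 genes that rose are shown to let the matches be seen in place, with that of Mcm6, the steadiest ring subunit, beside them. Capitals mark E2F matches, and all are read 5′ to 3′ on the strand of the gene.
Pold1 (chr7:44548766-44549065, minus strand): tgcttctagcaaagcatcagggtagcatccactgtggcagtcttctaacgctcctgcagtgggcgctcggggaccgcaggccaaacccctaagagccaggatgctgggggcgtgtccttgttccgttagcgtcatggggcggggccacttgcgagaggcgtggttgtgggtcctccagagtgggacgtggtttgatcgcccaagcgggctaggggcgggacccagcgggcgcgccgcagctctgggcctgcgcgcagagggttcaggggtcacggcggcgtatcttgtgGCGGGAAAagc
Mcm8 (chr2:132815891-132816190, plus strand): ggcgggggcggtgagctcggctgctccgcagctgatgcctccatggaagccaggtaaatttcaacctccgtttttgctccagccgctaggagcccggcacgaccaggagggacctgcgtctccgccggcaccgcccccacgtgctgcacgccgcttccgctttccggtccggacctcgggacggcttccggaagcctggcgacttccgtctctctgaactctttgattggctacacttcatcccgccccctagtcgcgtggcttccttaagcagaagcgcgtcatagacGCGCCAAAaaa
Orc3 (chr4:34614893-34615192, minus strand): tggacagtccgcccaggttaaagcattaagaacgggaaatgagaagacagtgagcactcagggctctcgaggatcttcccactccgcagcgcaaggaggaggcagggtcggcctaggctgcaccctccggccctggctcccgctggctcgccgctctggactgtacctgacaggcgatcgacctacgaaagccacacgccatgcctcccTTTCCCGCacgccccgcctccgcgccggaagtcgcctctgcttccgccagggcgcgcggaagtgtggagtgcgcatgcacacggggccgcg
Orc4 (chr2:48950185-48950484, minus strand): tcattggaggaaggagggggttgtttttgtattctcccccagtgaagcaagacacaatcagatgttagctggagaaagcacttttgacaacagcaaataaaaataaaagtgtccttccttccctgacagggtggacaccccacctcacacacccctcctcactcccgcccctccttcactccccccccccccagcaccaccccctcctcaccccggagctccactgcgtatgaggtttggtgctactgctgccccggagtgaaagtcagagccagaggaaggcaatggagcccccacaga
Mcm6 (chr1:128359656-128359955, minus strand): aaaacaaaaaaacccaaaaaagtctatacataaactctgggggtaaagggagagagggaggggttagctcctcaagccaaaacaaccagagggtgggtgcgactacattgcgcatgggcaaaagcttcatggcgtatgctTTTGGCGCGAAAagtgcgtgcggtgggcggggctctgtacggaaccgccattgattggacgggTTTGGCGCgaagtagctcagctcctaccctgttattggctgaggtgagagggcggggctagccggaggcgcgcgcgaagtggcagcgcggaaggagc
In Pold1 the match lay on the opposite strand 39 bases after the start, in Mcm8 likewise 39 bases after it on the opposite strand, and in Orc3 41 bases before it on the strand of the gene, with the start base counted as 0. Mcm6 had 3 matches, of which the first 2 overlap on opposite strands.

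Other genes of the pathway were read from the same fit. Of 117 measured genes in 10 lists of related function, 24 were higher and 5 lower in KO (background 9.75% and 7.34%), with a median log2 change of 0.12. Dropping KO lines 1 to 4 in turn gave 13, 4, 5 and 17 higher and 5, 1, 1 and 5 lower. Over all genes these fits called 685, 237, 306 and 827 higher and 538, 235, 266 and 618 lower. With every library, 1071 of all genes were higher and 807 lower. Library weights left 3 of the 117 higher and the replicate block 0, where 206 and 2 of all genes were called higher. Firing factors and licensing control genes, such as Dbf4, Cdc7 and geminin (Gmnn), gave no call among 11. Cdc7 was above WT in every KO line (log2 0.39, adjusted p = 0.0505, limma) and Dbf4 below it (log2 -0.49, adjusted p = 0.0595, limma). Of the 11, chromosome-centred levels called 2 lower, trimmed-mean scaling 1 lower, and a filter at a mean scaled value of 10 called 1 higher. Nucleotide supply genes, such as ribonucleotide reductase, gave no call among 13. At an unadjusted p below 0.05 in limma, 1 was higher and 2 were lower in the first list, and 3 were higher in the second, where the fit without WT replicate 1 called 3 higher and 2 lower. The share of all genes at that unadjusted threshold was not computed. Fork protection genes and alternative clamp loaders had 4 higher and 2 lower of 18. Ctc1, a subunit of the telomere complex that assists polymerase alpha, rose from 1564 and 1594 units to 2920, 2791, 2860 and 2370 (log2 0.78, SE 0.109, adjusted p = 0.00767), without overlap, and stayed called whichever library was dropped. The helicase Rtel1 fell, from 1710 and 1449 units to 1077, 948, 989 and 831 (log2 -0.71, adjusted p = 0.0169, lost in 2 of the 6 such fits). Atad5, which unloads Pcna, fell by 0.51 and Rnaseh2c, a subunit of the nuclease that removes ribonucleotides, rose by 0.81 (lost in 3 and 5 fits). In the checkpoint list 2 of 9 were higher, the kinase Atr (log2 0.58) and the clamp subunit Rad1 (0.49), with calls lost in 3 and 5 fits.

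Translesion and repair polymerases had 4 higher of 10 and none lower. Dropping KO lines 1 to 4 in turn left 2, 1, 1 and 2 higher, where 685, 237, 306 and 827 of all genes were called higher. Poli, a polymerase that copies past damaged bases, rose from 315 and 288 units to 627, 658, 679 and 621 (log2 1.06, SE 0.106, adjusted p = 0.0034), above WT in every line, and stayed called whichever library was dropped. Polh (log2 1.11), Poll (0.89) and Polk (0.68) rose as well, from WT levels of at most 424 units, and their calls were lost in 5, 4 and 3 of the 6 fits. Of 5 topoisomerases, Top2a rose by 0.48 and Top1 by 0.31 (lost in 2 and 5 fits). The histone chaperone Asf1b, on chromosome 8, rose by 0.81 and was the only call among 11 genes of replication-coupled chromatin; with the chromosome median taken off, its change was 0.61 (adjusted p = 0.0145). Asf1b failed in 4 of 6 fits when single libraries were dropped (highest adjusted p 0.0754).

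Mitotic genes had 9 higher and 1 lower of 16, with a median log2 change of 0.36. Of the 6 fits with 1 library dropped, those without KO lines 1 to 4 called 6, 2, 3 and 6 higher. Over all genes these fits called 685, 237, 306 and 827 higher, against 1071 with every library. Library weights left 1 mitotic gene higher and the replicate block 0, where 206 and 2 of all genes were called higher. Single calls were lost in 6 of the 6 fits for Cenpe, in 5 for Bub1b and Aurka, in 3 for Bub1 and Plk1 and in 1 for Tpx2. The mitotic kinase Aurkb rose from 894 and 764 units to 1382, 1376, 1314 and 1566 (log2 0.76, SE 0.115, adjusted p = 0.00983). The kinetochore protein Cenpf rose from 1738 and 2102 units to 2994, 3110, 3036 and 3176 (log2 0.68, adjusted p = 0.0086). Both were above WT in every line and were called in each fit with a library left out. The proliferation antigen Mki67 rose by 0.73, while cyclin B2 (Ccnb2) fell by 0.73, both with calls lost in 2 fits. Whether mitotic and replication genes differ in their response was not tested. Among 11 cyclins, kinases and inhibitors of G1 and S phase, 2 fell and none rose: Ccnd2, a D-type cyclin, from 794 and 448 units to 50, 11, 46 and 56 (log2 -3.57, SE 0.465, adjusted p = 0.00694), and Cdk6, a kinase partner of D cyclins, by 0.69 (lost in 3 of the 6 fits, highest adjusted p 0.0854). The lower values of Ccnd2 stood in the lines in which fibroblast markers were lower, and their part in it was not tested.

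Among 13 E2F and pocket protein genes, E2f1 and Rb1 rose. E2f1, an activator of S phase genes, had 904 and 838 units in WT and 1476, 1259, 1185 and 1202 in KO, without overlap (log2 0.54, SE 0.119, adjusted p = 0.0258, lost in 3 of the 6 fits). Rb1, the retinoblastoma protein that restrains E2F, had 320 and 220 units in WT and 579, 477, 552 and 382 in KO (log2 0.85, SE 0.215, adjusted p = 0.0386, lost in 4 fits). Of the E2F activators E2f2 and E2f3, neither passed.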

How the data were processed

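RNA sequencing gave 2 WT and 4 KO libraries. RSEM 1.2.17, Bowtie2 2.2.0 and build mm10 are named in the submitters' processing notes; no source used here gives their roles, the annotation or how values were normalized. The deposited values, named CPM by the authors, were treated as a normalized score, since they are whole numbers that sum to 14612799 or more per library, which CPM cannot. The test had been planned for CPM, and the same test was kept. Values were divided by 14.7012, a pseudocount of 1 was added and log2 taken. Genes needed a scaled value of 1 in 2 libraries, which every gene met. The KO effect was estimated in limma 3.58.1 (R 4.3.3; lmFit, then eBayes with trend; two-sided; no covariate) on all 10989 genes, with calls at a Benjamini-Hochberg adjusted p below 0.05. The fit has 4 residual degrees of freedom. An exact permutation of 2 against 4 libraries cannot go below 0.0667. The procedure was also run on simulated log2 values with independent normal spread and no shifts of whole chromosomes. That run therefore does not check how such shifts affect the calls. Positions and transcript lengths came from GENCODE M21, which held all 45 members. The members and gene lists were chosen with earlier results of these data known. Values in each sample are given for called members, the ORC, Mcm2 to Mcm7 and GINS subunits, the 5 uncalled members with the largest change and members flagged below; other members were named for completeness, and of other pathway genes at most 4 called genes a list. Alternatives were other pseudocounts, filters and scalings (trimmed-mean factors, quantiles), no trend, library weights, chromosome-centred levels, the replicate number as a block, and each library left out (with 1 WT library left, it was assumed to vary like the KO lines).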

Additional observations from a re-analysis of the deposited data

Results flagged for a closer look

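Among the 4 KO lines, the gap of the most distant line to its nearest neighbour, divided by the whole range, exceeded Dixon's 95% critical value for 2 of the 45 genes, where chance flags about 1 in 20. Cdt1 lay at 2674 units in KO line 1, apart from the other lines, of which the nearest was at 3384 units. Cdt1 is on chromosome 8, whose genes as a whole stood low in that line. Mcm8 lay at 332 units in KO line 3, with the nearest line at 384 units; both are above the WT libraries at 250 and 240 units. WT groups of 2 were not tested in this way.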

How the results depend on the processing

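Over all genes, 1878 were called; 382 were called with library weights, 20 with the replicate number as a block, and 472 to 3304 with a library left out (lowest without KO line 2, highest without WT replicate 1). Members called higher numbered 4; they numbered 2 without the trend, 0 with library weights, 0 with the replicate block, and 0 to 4 with a library left out. At an unadjusted p below 0.05 in limma, 4 members were higher in each of the fits with library weights, with the block and without KO line 2. At that threshold 1, 2 and 1 members were lower in these fits, and the share of all genes was not computed. Members called lower numbered 0; they numbered 2 with chromosome-centred levels, and 0 to 4 with a library left out (4 without WT replicate 1). Other pseudocounts, filters and quantile normalization kept both member counts, and trimmed-mean scaling gave 3 higher, without Orc3 (adjusted p = 0.0565, limma). The numbers shared by WT replicates and KO lines do not pair the libraries by any label. Their deviations from the group means correlated across genes at 0.145 for number 1 and 0.097 for number 2. WT replicate 2 and KO line 3, which share no number, correlated at 0.096. With 2 WT libraries, their deviations are the same with opposite signs, so these values do not single out a pairing. Over the 45 genes and 16 alternatives, no change reversed with a call; 18 uncalled genes changed sign in 36 fits. The causes were not tested. Depth is unknown, so the limits it sets could not be given.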

Other observations

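Other genes of chromosome 8 bear on S phase control and stem cell identity. Tfdp1, the dimerization partner of E2F factors, lay at 1706 units in WT replicate 1 and 1558 in KO line 1, and at 4056 units in WT replicate 2 and 4554, 4142 and 4330 in KO lines 2 to 4. The KO lines thus spanned 2.92-fold and the WT libraries 2.38-fold, and the KO versus WT change did not pass (log2 0.35, adjusted p = 0.653, limma). E2f4, a repressive E2F, had 2765 and 3266 units in WT and 1936, 2954, 3161 and 3312 in KO. Zfp42, the naive pluripotency marker also called Rex1 and likewise on chromosome 8, had 7527 and 16051 units in WT and 7708, 11450, 11450 and 12218 in KO. In all 3 genes, WT replicate 1 was below WT replicate 2 and KO line 1 was the lowest KO line. These genes were chosen after their values were seen.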
